A study of Mus musculus with 9 samples.

Results

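The mitochondrial carrier (Slc25) genes were examined in mouse dendritic cells (DC) treated with butyrate or trichostatin A (TSA) and in untreated DC. A gene was a member if its platform annotation symbol was Slc25a followed by digits, on a probe set with exactly 1 symbol. This gave 33 genes of 12393 and 65 probe sets of 22690, and where a gene had several probe sets the brightest, by its average across the 9 arrays, stood for it. Carriers without a row under this rule, such as the citrate carrier Slc25a1 and the aspartate/glutamate carrier Slc25a12, are not analysed here.

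Expression was measured on 1-colour Affymetrix arrays in 3 groups of 3 samples, which were butyrate-treated, TSA-treated and untreated. All groups held CD11c bead-purified spleen DC from mice of 6 to 8 weeks that carried B16 tumours expressing Flt3L, the growth factor that expands DC. Butyrate is a short-chain fatty acid and TSA a hydroxamic acid, and both inhibit histone deacetylases. The sources used here do not give the strain, the dose and duration of treatment, or whether replicates came from separate mice or cultures, so p-values measure only the spread between these samples, which may be technical.

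Slc25 proteins are small carriers of the mitochondrial inner membrane, apart from a few in the peroxisomal or mitochondrial outer membrane. They exchange nucleotides, phosphate, organic acids, amino acids, cofactors and iron precursors between the cytosol and the matrix, and so link oxidative phosphorylation, amino acid breakdown, heme synthesis and the export of carbon for lipid synthesis. DC, like other immune cells, change the use of these routes when they are activated.

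With butyrate, the branched-chain amino acid carrier Slc25a44 rose 2.3-fold, the uncoupling-protein-like carrier Slc25a30 2.19-fold, the ornithine carrier Slc25a15 2.13-fold and the calcium-regulated ATP-Mg/phosphate carrier Slc25a23 2.05-fold. With TSA, Slc25a15 rose 2.44-fold and Slc25a30 2.17-fold. These folds are those of the brightest probe set on the deposited scale. Other probe sets of Slc25a44, Slc25a30 and Slc25a15 gave smaller values. With arrays scaled to hybridization spike-in controls, described below, 0 members rose 2-fold with butyrate. The glycine carrier Slc25a38 fell with either treatment, to 8.12 in butyrate and 7.90 in TSA samples on the log2 scale, against 8.81 in untreated samples. Slc25a45 and the S-adenosylmethionine carrier Slc25a26 also fell with each. The adenine nucleotide translocase gene Slc25a5 was not called in any comparison of the deposited values.

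Counts were made at a limma adjusted p under 0.05 over all 12393 genes. With butyrate, 17 members rose, 6 fell and 10 were not called, and a change of 2-fold or more was reached by 4 of those that rose and 0 of those that fell. Over all genes 33.6% rose and 24.8% fell with butyrate. At 2-fold or more 2.74% of all genes rose and 4.6% fell, 7.33% in both directions. With TSA, 15 members rose, 6 fell and 12 were not called, against 26.3% of all genes called higher and 21% called lower. Of the TSA rises 2 were at least 2-fold. Among all genes 2.14% rose and 3.28% fell by at least 2-fold with TSA, 5.41% in both directions. The median difference from untreated samples over the 33 members was 0.19 with butyrate and 0.13 with TSA, against 0.085 and 0.032 over all genes. The share of members called was 69.7% with butyrate and 63.6% with TSA, against 58.4% and 47.3% of all genes, and most members moved by less than 2-fold. Of the 33 members 22 lay above the median level of all genes. Among genes above that level 39.9% were called higher and 40.6% lower with butyrate, and 42.9% and 33% with TSA. In the fit to those genes Slc25a5, Slc25a10, Slc25a20, Slc25a24, Slc25a25 and Slc25a37 were not called with butyrate. With TSA, Slc25a5, Slc25a10, Slc25a22, Slc25a25, Slc25a33, Slc25a46, Slc25a51 and Slc25a53 were not called. Members above that level were thus called less often than all genes above it. The larger member share is that over genes of all levels, and the part of level in it was not tested. Both treatments are set against the same untreated arrays, so their changes are given side by side and are not independent.

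**Figure D1:**
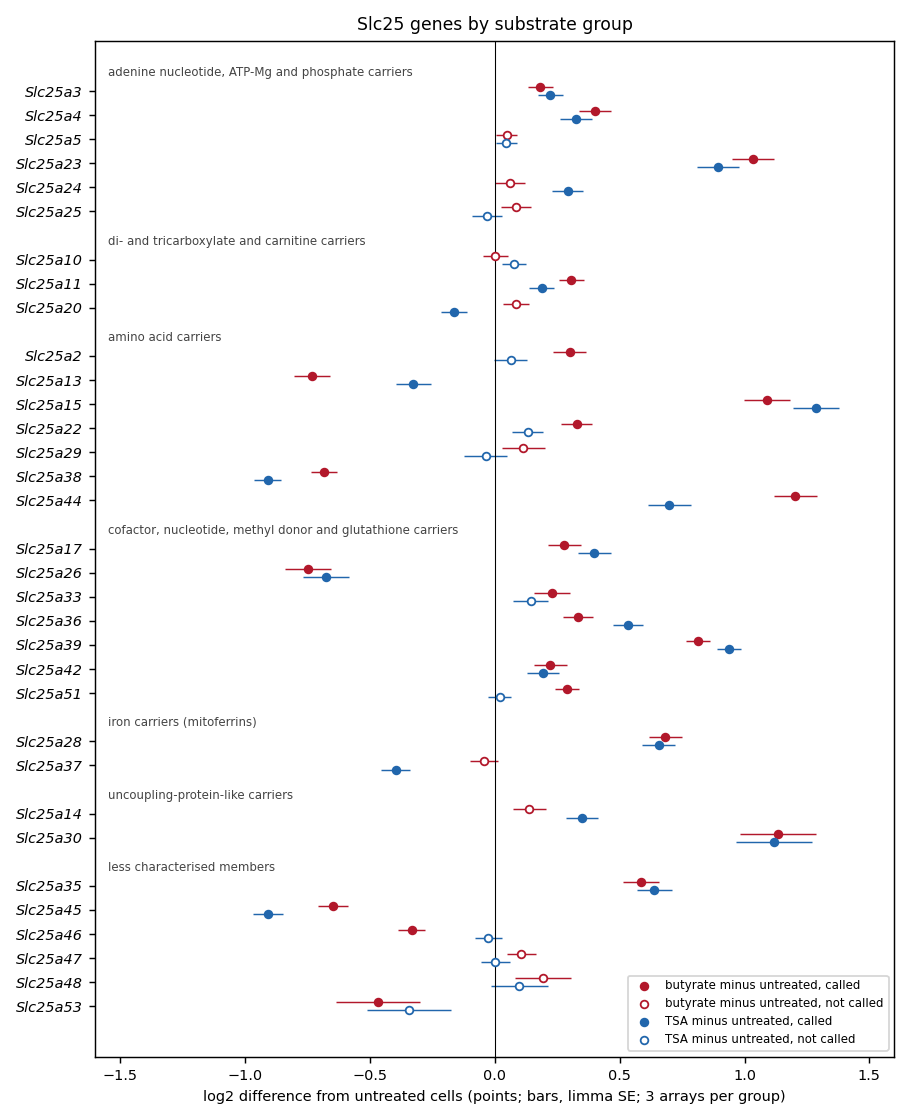
Log2 difference from untreated cells for the 33 Slc25 genes, ordered by substrate group, with butyrate in red and TSA in blue (bars, limma SE; 3 arrays per group; filled points, called at adjusted p under 0.05). Slc25a15, Slc25a23, Slc25a30 and Slc25a44 lie furthest to the right and Slc25a13, Slc25a26, Slc25a38 and Slc25a45 furthest to the left; on the hybridization spike-in scale every butyrate point moves left by 0.415.

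The butyrate counts depend on how arrays are scaled. The 7 probe sets for hybridization spike-ins, control transcripts added before hybridization, averaged 10.78 ± 0.063 in butyrate, 10.38 ± 0.030 in TSA and 10.37 ± 0.075 in untreated samples (SD, n = 3 each). Shifting the arrays to equal spike-ins lowers each butyrate difference from untreated by 0.415, and the median over all genes was −0.331 on that scale, against 0.085 as deposited. On that scale 6 members were called higher and 17 lower with butyrate, against 7.52% and 67.9% of all genes. Of the 17 rises, 10 turned negative (Slc25a2, Slc25a3, Slc25a4, Slc25a11, Slc25a17, Slc25a22, Slc25a33, Slc25a36, Slc25a42 and Slc25a51), while Slc25a15, Slc25a23, Slc25a28, Slc25a30, Slc25a39 and Slc25a44 were still called higher. Slc25a35 stayed positive without a call, at 0.17. The count of changes of 2-fold or more also turned over with butyrate on that scale, to 0 higher and 4 lower (Slc25a13 −1.147, Slc25a26 −1.163, Slc25a38 −1.10 and Slc25a45 −1.062), while Slc25a44 was at 0.788, Slc25a30 at 0.718, Slc25a15 at 0.676 and Slc25a23 at 0.618. The TSA counts on that scale were 12 higher and 5 lower, against 21.7% and 19% of all genes, with 2 rises of at least 2-fold. Butyrate rises, falls and absent calls given below are those of the deposited scale, which is relative to the bulk of genes.

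Other features of the arrays moved with treatment. The 3′ minus 5′ difference of beta-actin probe sets, a sign of RNA integrity, was 0.682 ± 0.040 in butyrate, 0.641 ± 0.042 in TSA and 0.432 ± 0.066 in untreated samples (SD, n = 3 each, log2 units). The DC genes Cd74 (14.30, 14.24 and 14.39 in butyrate, TSA and untreated samples) and H2-Aa (14.55, 14.67 and 14.65) were near the top of the scale in all groups, where array maxima lay between 15.1 and 15.2. The CD11c gene Itgax was present, at 8.50, 8.25 and 9.24 in the same order. The marker counts that follow stand against 33.6% of all genes called higher and 24.8% lower with butyrate, and 26.3% and 21% with TSA. DC markers fell in 3 of 5 measured genes with butyrate and 4 of 5 with TSA. Markers of macrophages and monocytes fell in 6 of 6 measured genes with either treatment, B cell markers in 2 of 5 with butyrate and 3 of 5 with TSA, and T cell markers in 1 of 5 with butyrate and 2 of 5 with TSA, with 0 called higher in these lists. Of 8 neutrophil markers 5 fell and 2 rose with butyrate, and 6 fell and 0 rose with TSA. Of 5 NK cell markers 2 fell and 1 rose with butyrate, and 2 fell and 0 rose with TSA. Of 6 B16 melanoma markers 1 fell and 2 rose with butyrate, and 2 fell and 1 rose with TSA. Butyrate falls in the T cell (20%) and melanoma (16.7%) lists were no more frequent than over all genes. The part of the marker and RNA integrity differences in the Slc25 differences was not tested. In bulk samples fewer cells of a type and less RNA per cell cannot be told apart.

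Promoter sequences are given for the members with the largest changes, so that the DNA before their start sites can be read beside the values. Windows of 250 bases before the most upstream start came from RefSeq (GRCm38.p6) and matched 26 of the 33 members. Of these, 20 (76.9%) held the GC box GGGCGG on either strand, against 53.1% of 9883 genes on the array and 33% of all 27025 promoters. The CCAAT box CCAAT was in 13 (50%), against 35.9% of array genes, and the TATA box TATAAA in 0, against 9.13% of array genes. These are descriptions of letters in a window, searched on both strands, and none of the 3 motifs contains another.

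The bases that lie in no annotated gene are shown for the members that rose at least 2-fold and have a window, and for the largest falls with TSA. They are written 5′ to 3′ on the gene's strand in lower case, with GC boxes in capitals. The ornithine carrier Slc25a15 (minus strand, chr8:22398622-22398720) held 2 GC boxes in 99 bases that are 71.7% G or C.
Slc25a15: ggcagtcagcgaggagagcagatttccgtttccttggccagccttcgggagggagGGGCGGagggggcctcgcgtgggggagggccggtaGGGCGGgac
The ATP-Mg/phosphate carrier Slc25a23 (minus strand, chr17:57059910-57060113) and Slc25a30 (minus strand, chr14:75787038-75787287) held 1 each.
Slc25a23: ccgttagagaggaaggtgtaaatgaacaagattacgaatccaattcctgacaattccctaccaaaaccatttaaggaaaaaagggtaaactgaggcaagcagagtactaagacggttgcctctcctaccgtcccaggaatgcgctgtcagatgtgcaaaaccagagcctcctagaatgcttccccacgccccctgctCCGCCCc
Slc25a30: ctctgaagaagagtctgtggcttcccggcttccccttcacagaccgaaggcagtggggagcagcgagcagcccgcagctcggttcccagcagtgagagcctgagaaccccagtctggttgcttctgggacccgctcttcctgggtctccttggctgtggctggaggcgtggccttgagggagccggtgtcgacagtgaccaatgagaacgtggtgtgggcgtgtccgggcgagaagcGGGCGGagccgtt
The glycine carrier Slc25a38 (plus strand, chr9:120110132-120110376) held 0, in 245 bases that are 40.4% G or C, and Slc25a45 (plus strand, chr19:5877572-5877800) held 1.
Slc25a38: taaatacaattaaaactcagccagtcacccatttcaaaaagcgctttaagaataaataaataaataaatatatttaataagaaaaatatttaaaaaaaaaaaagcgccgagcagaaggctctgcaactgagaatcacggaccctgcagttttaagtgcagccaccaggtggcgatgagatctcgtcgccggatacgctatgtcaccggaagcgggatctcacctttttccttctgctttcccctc
Slc25a45: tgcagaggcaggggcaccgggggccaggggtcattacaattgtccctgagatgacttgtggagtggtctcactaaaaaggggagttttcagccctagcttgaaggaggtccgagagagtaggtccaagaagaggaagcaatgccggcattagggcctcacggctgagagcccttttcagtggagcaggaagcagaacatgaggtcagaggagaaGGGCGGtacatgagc
The GC box was thus present in windows of 3 genes that rose and in that of Slc25a45, which fell.

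Of 6 measured adenine nucleotide and phosphate carriers, 3 rose and 0 fell with butyrate and 4 rose and 0 fell with TSA. Over all genes 33.6% rose and 24.8% fell with butyrate, and 26.3% and 21% with TSA. On the hybridization spike-in scale 1 was called higher (Slc25a23) and 4 lower with butyrate (Slc25a3, Slc25a5, Slc25a24 and Slc25a25), and 3 higher and 0 lower with TSA. That scale gave 7.52% of all genes higher and 67.9% lower with butyrate, and 21.7% and 19% with TSA. The butyrate falls of this group there were near the all-gene share. Slc25a23, one of the calcium-regulated carriers that set the matrix pool of adenine nucleotides, read 5.93, 5.87 and 5.63 on the butyrate arrays, 5.64, 5.60 and 5.77 on the TSA arrays and 4.88, 4.75 and 4.71 on the untreated arrays. Every treated array lay above every untreated array, and the differences from untreated were 1.03 ± 0.084 with butyrate (adjusted p = 2.17e-06) and 0.89 ± 0.084 with TSA (7.98e-06). This probe set was dim, in the range where RMA compresses fold changes.

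Its relatives moved less. Slc25a24 rose by 0.29 ± 0.061 with TSA (adjusted p = 0.00245) and was at 0.06 ± 0.061 with butyrate (0.413). Slc25a25 was called with neither, at 0.08 with butyrate and −0.03 with TSA. The 3 calcium-regulated ATP-Mg/phosphate carriers on the array thus had different values under the same treatments.

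The translocases that exchange ADP for ATP also differed. Slc25a4, the form typical of heart and muscle, read 10.74, 10.67 and 10.65 on the butyrate arrays, 10.59, 10.59 and 10.64 on the TSA arrays and 10.36, 10.14 and 10.35 on the untreated arrays. It rose by 0.33 ± 0.065 with TSA (adjusted p = 0.00166) and by 0.40 ± 0.065 with butyrate (0.000359), and the butyrate value was −0.014 on the hybridization spike-in scale. Slc25a5, the form of proliferating cells, read 11.81, 11.76 and 11.77 on the butyrate arrays, 11.79, 11.79 and 11.75 on the TSA arrays and 11.71, 11.75 and 11.73 on the untreated arrays. The butyrate arrays lay just above the untreated ones and the TSA arrays overlapped both. Its 95% interval was −0.05 to 0.14 for butyrate minus untreated and −0.05 to 0.14 for TSA minus untreated. None of its 8 probe sets was called in any comparison of the deposited values. With equal hybridization spike-ins Slc25a5 was called lower in butyrate than in untreated samples (−0.367, limma adjusted p = 0.000634) and than in TSA samples (−0.399, 0.000299), and after further quantile normalization it was called higher with butyrate (0.118, 0.0395). The phosphate carrier Slc25a3, which brings in the phosphate for ATP synthesis, was higher by 0.22 ± 0.050 with TSA (adjusted p = 0.00376) and 0.18 ± 0.050 with butyrate (0.0101), and with arrays set to equal hybridization spike-ins the butyrate value was −0.233, called lower, and the TSA value 0.207, not called (limma adjusted p = 0.0636).

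Among carriers of organic acids and acylcarnitine, changes on the deposited scale were small. Slc25a11, the oxoglutarate/malate carrier of the malate-aspartate shuttle, rose by 0.31 ± 0.051 with butyrate (adjusted p = 0.000449) and 0.19 ± 0.051 with TSA (0.0112), and on the hybridization spike-in scale it was −0.108 with butyrate and 0.173 with TSA, neither called (adjusted p = 0.275 and 0.142). The dicarboxylate carrier Slc25a10 was not called, at 0.00 with butyrate and 0.08 with TSA. On the hybridization spike-in scale it was called lower with butyrate, at −0.413 (adjusted p = 0.000315). Slc25a20, which carries acylcarnitines into the matrix for fatty acid oxidation, was −0.16 ± 0.052 with TSA (adjusted p = 0.0234) and 0.09 ± 0.052 with butyrate (0.179). With butyrate Slc25a20 was called lower on the hybridization spike-in scale (−0.329, adjusted p = 0.00194). After further quantile normalization it was called higher with butyrate (0.146, 0.0377). The TSA call of Slc25a20 was lost without TSA replicate 1 or 2 or untreated replicate 2 or 3, with values between −0.155 and −0.146. It was also lost after further quantile normalization, on both spike-in scales and at an adjusted p under 0.01.

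The amino acid carriers held the widest range of the family. With butyrate 4 of 7 rose and 2 fell, and with TSA 2 rose and 2 fell. Of all genes 33.6% rose and 24.8% fell with butyrate, and 26.3% and 21% with TSA. Slc25a15, which brings ornithine into the matrix for the urea cycle and proline metabolism, read 6.82, 6.88 and 6.94 on the butyrate arrays, 7.08, 6.95 and 7.20 on the TSA arrays and 5.92, 5.85 and 5.59 on the untreated arrays. Every treated array stood above every untreated array, and the differences were 1.09 ± 0.092 with butyrate (adjusted p = 2.85e-06) and 1.29 ± 0.092 with TSA (1.07e-06). Its other probe set, with a mean of 4.06, gave 0.23 ± 0.078 with butyrate (adjusted p = 0.0279) and 0.17 ± 0.078 with TSA (0.117).

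Slc25a44 imports branched-chain amino acids. Its levels were 7.30, 7.44 and 7.53 on the butyrate arrays, 7.08, 6.80 and 6.87 on the TSA arrays and 6.23, 6.31 and 6.12 on the untreated arrays. The groups formed 3 steps without overlap, with differences from untreated of 1.20 ± 0.086 with butyrate (adjusted p = 8.24e-07) and 0.70 ± 0.086 with TSA (5.72e-05). Its 2 other probe sets had means of 6.78 and 6.84, close to the 6.85 of the brightest. With butyrate and TSA the first gave 0.85 ± 0.090 and 0.52 ± 0.090, both called, and the other 0.23 ± 0.092 and 0.19 ± 0.092, neither called.

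The falls in this group were those of Slc25a38 and Slc25a13. Slc25a38 supplies mitochondrial glycine for the first step of heme synthesis, and read 8.19, 8.06 and 8.12 on the butyrate arrays, 7.94, 7.91 and 7.84 on the TSA arrays and 8.76, 8.85 and 8.82 on the untreated arrays. All treated arrays were below all untreated arrays, with differences of −0.68 ± 0.053 with butyrate (adjusted p = 1.53e-06) and −0.91 ± 0.053 with TSA (2.61e-07). Slc25a13 (citrin), which exports aspartate for the malate-aspartate shuttle, read 5.99, 6.14 and 6.09 on the butyrate arrays, 6.43, 6.40 and 6.61 on the TSA arrays and 6.73, 6.90 and 6.79 on the untreated arrays. Its 3 groups did not overlap, and it was lower, at −0.73 ± 0.071 with butyrate (adjusted p = 8.68e-06) and −0.33 ± 0.071 with TSA (0.00315). 

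The remaining amino acid carriers were higher or uncalled. The glutamate carrier Slc25a22 was higher by 0.33 ± 0.062 with butyrate (adjusted p = 0.00109) and at 0.13 ± 0.062 with TSA (0.111), and turned to −0.09 with butyrate on the hybridization spike-in scale. Slc25a2, an ornithine carrier like Slc25a15, was dim, at 4.32 in butyrate, 4.09 in TSA and 4.02 in untreated samples. Its butyrate call (adjusted p = 0.00273) also turned negative on that scale, at −0.115. The basic amino acid carrier Slc25a29 was not called with its brightest probe set, at 0.11 and −0.04, while 3 of its 4 others were called higher with butyrate.

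**Figure D2:**
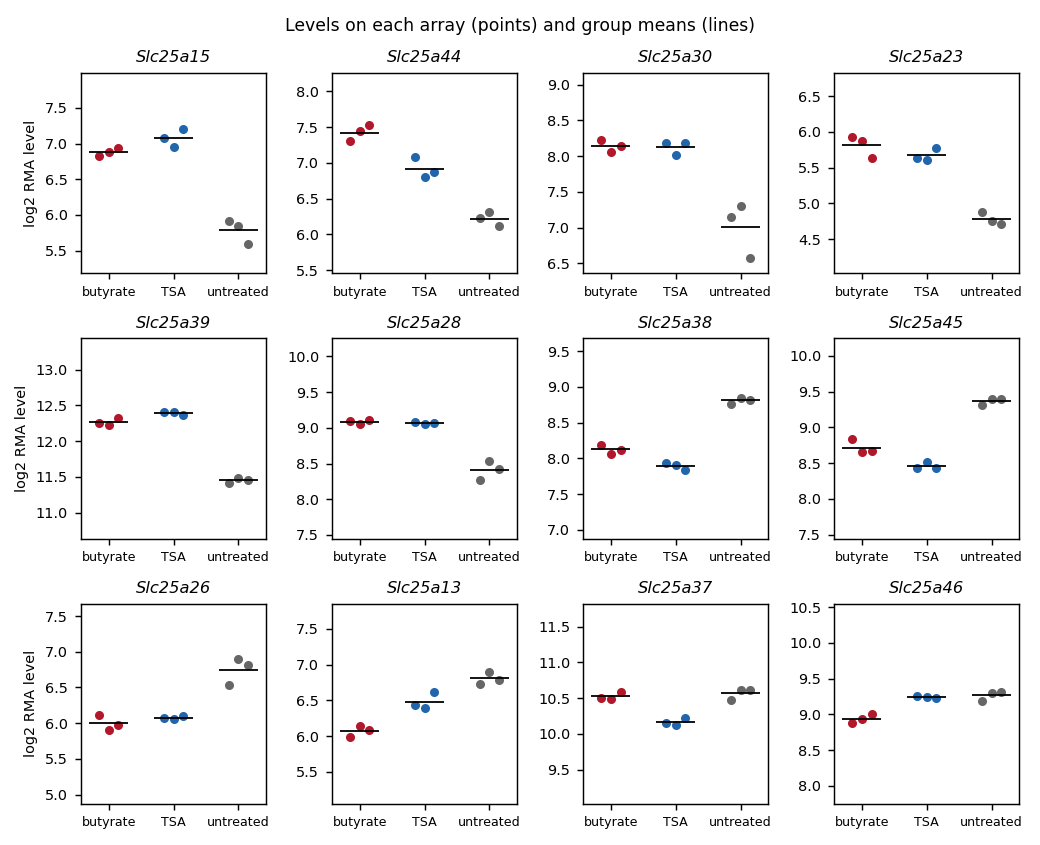
Log2 RMA level of 12 Slc25 genes on each array (points) in butyrate, TSA and untreated samples, with group means (lines) and a y-axis of the same span in each panel. Slc25a15, Slc25a44, Slc25a30, Slc25a23, Slc25a39 and Slc25a28 lie higher in both treated groups, Slc25a38, Slc25a45, Slc25a26 and Slc25a13 lower in both, Slc25a37 lower with TSA and Slc25a46 lower with butyrate.

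Of 7 cofactor and nucleotide carriers, 6 rose and 1 fell with butyrate, and 4 rose and 1 fell with TSA. Among all genes 33.6% rose and 24.8% fell with butyrate, and 26.3% and 21% with TSA. The 6 that rose with butyrate include Slc25a51, whose probe sets disagree. On the hybridization spike-in scale 1 was called higher with butyrate (Slc25a39) and 2 lower (Slc25a26 and Slc25a42), and 3 higher and 1 lower with TSA. That scale gave 7.52% of all genes higher and 67.9% lower with butyrate, and 21.7% and 19% with TSA. Slc25a39, needed for glutathione import into mitochondria, read 12.25, 12.22 and 12.33 on the butyrate arrays, 12.41, 12.41 and 12.36 on the TSA arrays and 11.42, 11.49 and 11.46 on the untreated arrays. Every treated array exceeded every untreated one, and the differences were 0.81 ± 0.049 with butyrate (adjusted p = 2.25e-07) and 0.94 ± 0.049 with TSA (1.23e-07). Its other 2 probe sets gave 0.76 and 0.58 with butyrate and 0.87 and 0.64 with TSA, all called.

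Slc25a36, a pyrimidine nucleotide carrier, rose by 0.33 ± 0.060 with butyrate (adjusted p = 0.000773) and 0.53 ± 0.060 with TSA (2.93e-05). Its other probe set, with a mean of 6.89, was called with neither. That probe set gave −0.09 ± 0.098 with butyrate (adjusted p = 0.451) and 0.16 ± 0.098 with TSA (0.229). With its probe sets averaged the butyrate value of Slc25a36 was 0.12 and no longer called (adjusted p = 0.186). The related Slc25a33 was higher by 0.23 ± 0.072 with butyrate (0.0189) and at 0.14 ± 0.072 with TSA (0.135). The peroxisomal carrier Slc25a17 was higher by 0.28 ± 0.065 with butyrate (0.00391) and 0.40 ± 0.065 with TSA (0.000425), and the coenzyme A carrier Slc25a42 by 0.22 ± 0.065 (0.014) and 0.19 ± 0.065 (0.0334). All 4 butyrate rises turned negative on the hybridization spike-in scale, to −0.08, −0.19, −0.14 and −0.19. The TSA call of Slc25a42 was lost without TSA replicate 1 (0.194) or 3 (0.164) or untreated replicate 2 (0.119), and also in the fit to the 2 groups alone, with an intensity trend, after further quantile normalization and on both spike-in scales. The butyrate call of Slc25a33 was lost without butyrate replicate 1 or 2 or untreated replicate 1.

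Slc25a26 carries S-adenosylmethionine, the methyl donor, into the matrix. It read 6.12, 5.91 and 5.97 on the butyrate arrays, 6.07, 6.06 and 6.10 on the TSA arrays and 6.53, 6.90 and 6.82 on the untreated arrays. Treated and untreated arrays did not overlap, and it was lower, at −0.75 ± 0.092 with butyrate (adjusted p = 5.01e-05) and −0.67 ± 0.092 with TSA (0.000123). Its other, dimmer probe set gave −0.23 ± 0.093 with butyrate (adjusted p = 0.0563) and −0.31 ± 0.093 with TSA (0.0195).

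Slc25a51, the mammalian carrier of NAD+, gave opposite directions with different probe sets. The brightest, with a mean of 10.71, was higher by 0.29 ± 0.047 with butyrate (adjusted p = 0.000398) and at 0.02 ± 0.047 with TSA (0.783). The next, with a mean of 9.07, was lower, at −0.25 ± 0.047 and −0.34 ± 0.047, and the dimmest, at 8.27, was lower, at −0.56 ± 0.062 and −0.82 ± 0.062. Averaged over the 3 probe sets the gene was lower, at −0.173 with butyrate and −0.378 with TSA, so no direction can be given for the gene as a whole. The sources used here do not say which transcript ends these probe sets cover.

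**Figure D3:**
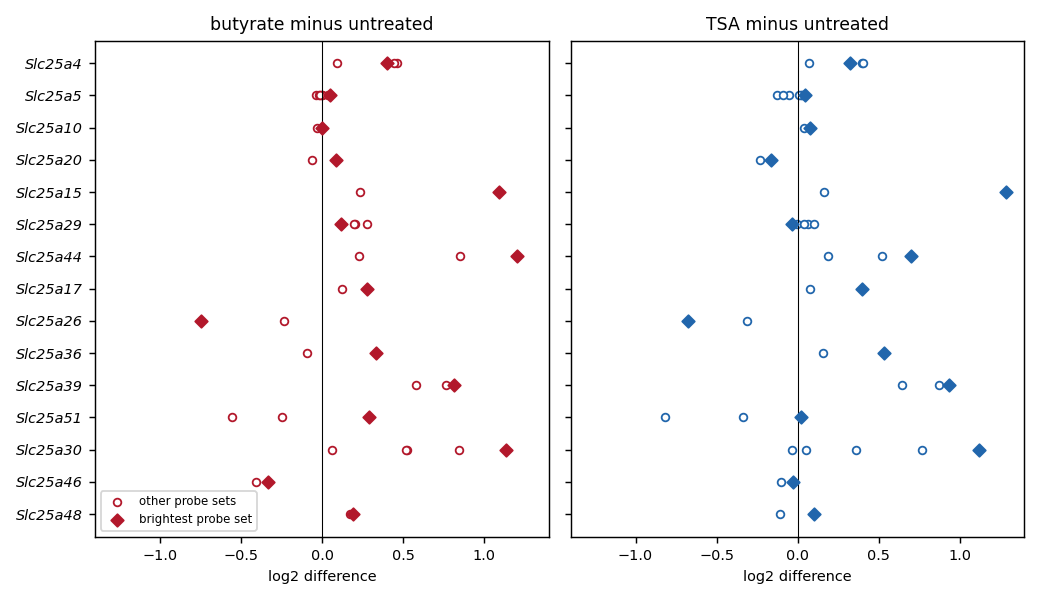
Log2 difference from untreated cells for each probe set of the 15 Slc25 genes with more than 1 (diamond, brightest probe set; circles, the others), for butyrate (left) and TSA (right). The probe sets of Slc25a5 cluster at 0 and those of Slc25a39 lie to the right, while those of Slc25a51 lie on both sides of 0 with butyrate.

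Across the family, 15 members had more than 1 probe set. Their 32 other probe sets gave the call of the brightest one in 21 cases with butyrate and 23 with TSA, and the opposite call in 2 with butyrate (Slc25a51) and 0 with TSA. In the other cases 1 of the probe sets compared was called and the other was not.

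Of the 2 mitoferrins, which import iron for heme and iron-sulfur clusters, Slc25a28 rose with each treatment and Slc25a37 fell with TSA and was not called with butyrate on the deposited scale. Slc25a28 (mitoferrin 2), expressed in many tissues, read 9.10, 9.05 and 9.11 on the butyrate arrays, 9.08, 9.05 and 9.06 on the TSA arrays and 8.27, 8.53 and 8.42 on the untreated arrays. It rose by 0.68 ± 0.065 with butyrate (adjusted p = 6.82e-06) and by 0.66 ± 0.065 with TSA (1.13e-05), with no overlap. Slc25a37 (mitoferrin 1), the form of developing red cells, read 10.51, 10.49 and 10.58 on the butyrate arrays, 10.16, 10.13 and 10.23 on the TSA arrays and 10.48, 10.62 and 10.62 on the untreated arrays. The TSA arrays were below all others, at −0.40 ± 0.057 (adjusted p = 0.000174), whereas butyrate and untreated arrays overlapped (−0.04 ± 0.057, 0.532). Slc25a37 on the hybridization spike-in scale was called lower with butyrate too, at −0.459 (limma adjusted p = 0.000197), beside −0.411 with TSA.

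Erythroid markers were read beside these genes. Of 8 erythroid markers 6 were measured, and their mean level ranged from 8.82 to 8.89 in butyrate, 8.68 to 8.71 in TSA and 9.20 to 9.31 in untreated samples. With butyrate 4 of the 6 fell and 1 rose, and with TSA 5 fell, against 24.8% and 21% of all genes called lower. The red cell anion exchanger Slc4a1 stood at 11.55 in butyrate, 11.27 in TSA and 12.14 in untreated samples, and was lower, at −0.60 ± 0.052 with butyrate and −0.87 ± 0.052 with TSA. The globin gene Hba-a1 was dim and not called, at 5.19, 5.05 and 5.16 in butyrate, TSA and untreated samples. Their part in the falls of Slc25a37 and Slc25a38 was not tested.

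Both measured uncoupling-protein-like carriers were higher with TSA. Slc25a30 read 8.23, 8.06 and 8.14 on the butyrate arrays, 8.19, 8.02 and 8.18 on the TSA arrays and 7.15, 7.30 and 6.58 on the untreated arrays. Untreated replicate 3 lay well below the other untreated arrays, and no treated array overlapped the untreated ones. The differences were 1.13 ± 0.153 with butyrate (adjusted p = 9.82e-05) and 1.12 ± 0.153 with TSA (0.000123), and without that replicate they were 0.92 and 0.90. Its 4 other probe sets gave smaller values, from 0.06 to 0.85 with butyrate and from −0.03 to 0.77 with TSA, and the dimmest was called with neither. Slc25a14 rose by 0.35 ± 0.065 with TSA (adjusted p = 0.00104) and was at 0.14 ± 0.065 with butyrate (0.0902).

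The less characterised members went in both directions. Slc25a45 read 8.83, 8.65 and 8.67 on the butyrate arrays, 8.43, 8.51 and 8.43 on the TSA arrays and 9.31, 9.40 and 9.39 on the untreated arrays. It was lower, at −0.65 ± 0.060 with butyrate (adjusted p = 5.69e-06) and −0.91 ± 0.060 with TSA (5.91e-07), with no overlap between treated and untreated arrays. Slc25a35 rose by 0.58 ± 0.071 with butyrate (4.59e-05) and 0.64 ± 0.071 with TSA (2.78e-05). Slc25a46, an outer membrane protein involved in mitochondrial shape, read 8.88, 8.93 and 9.0 on the butyrate arrays, 9.26, 9.24 and 9.23 on the TSA arrays and 9.19, 9.30 and 9.32 on the untreated arrays. It was lower with butyrate, at −0.33 ± 0.054 (adjusted p = 0.000375), below every other array, and at −0.03 ± 0.054 with TSA (0.746).

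Slc25a53 read 6.49, 7.06 and 7.34 on the butyrate arrays, 7.17, 7.11 and 6.98 on the TSA arrays and 7.38, 7.46 and 7.45 on the untreated arrays. The butyrate arrays spread widely (SD 0.432, against 0.100 in TSA and 0.042 in untreated samples), and the butyrate difference of −0.47 ± 0.168 (adjusted p = 0.0353) lost its call without butyrate replicate 1 or 2 or any 1 of the untreated replicates. Without butyrate replicate 1 it was −0.233, and without the others named −0.515 to −0.454. With TSA it was −0.34 ± 0.168 (0.127), called without butyrate replicate 1 (adjusted p = 0.00619) or 3, which enter its spread only. In the fit to the 2 groups alone Slc25a53 was called lower with TSA (adjusted p = 0.00213) and not called with butyrate (0.0608). Its butyrate call was also lost with an intensity trend (0.0556) and after further quantile normalization (0.0565). Slc25a47 and Slc25a48 were called in no comparison of the deposited values. With equal hybridization spike-ins Slc25a47 was called lower in butyrate than in untreated samples (−0.309, limma adjusted p = 0.00251) and than in TSA samples (−0.297, 0.0033), and Slc25a48 lower than in TSA samples (−0.306, 0.0175). Without untreated replicate 1 Slc25a47 was called higher with butyrate on the deposited scale (0.153, 0.0484).

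Butyrate and TSA were also compared with each other, with no untreated array in the difference. Of the 33 members, 8 were higher and 5 lower in butyrate than in TSA samples, and 20 were not called. Over all genes 15.9% were higher and 20% lower, and the median difference was 0.03 both for the members and for all genes. No member differed by 2-fold, as 0.379% of all genes did. On the hybridization spike-in scale 0 were higher and 26 lower, with a median over all genes of −0.367, and 0.75% and 81.1% of all genes were called.

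With the brightest probe sets, Slc25a44 showed the largest difference of the family, 0.50 ± 0.086 (adjusted p = 0.00148), with all butyrate arrays above all TSA arrays. Its 2 other probe sets gave 0.33, called, and 0.04, not called. With all probe sets of a gene averaged it was 0.291, smaller in size than Slc25a13 (−0.406), Slc25a37 (0.353) and Slc25a46 (−0.308). On the hybridization spike-in scale it was 0.104 and no longer called. Slc25a37 was higher in butyrate samples by 0.35 ± 0.057 (adjusted p = 0.00106), and turned to −0.05 on that scale. The others higher were Slc25a51 (0.27), Slc25a45 (0.26), Slc25a20 (0.25), Slc25a2 (0.24), Slc25a38 (0.22) and Slc25a22 (0.20), all negative on that scale.

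Citrin (Slc25a13) was lower in butyrate than in TSA samples, at −0.41 ± 0.071 (adjusted p = 0.0018) as was Slc25a46 at −0.31 ± 0.054 (0.00177), and their arrays did not overlap. Slc25a24 (−0.23), Slc25a14 (−0.21) and Slc25a36 (−0.20) were lower by smaller amounts. Each lost its call without 1 array or another: Slc25a24 without butyrate or TSA replicate 1, Slc25a14 without butyrate replicate 1 or 2 or TSA replicate 2 or 3, and Slc25a36 without butyrate replicate 2 or TSA replicate 1 or 3. Of the higher ones Slc25a2 lost its call without butyrate replicate 2 or TSA replicate 1, and Slc25a22 without butyrate replicate 1 or 2 or TSA replicate 1 or 3. Among other genes higher with each treatment, the 95% interval of butyrate minus TSA was −0.33 to 0.35 for Slc25a30, −0.05 to 0.33 for Slc25a23 and −0.12 to 0.17 for Slc25a28, none called. Without butyrate replicate 3 Slc25a23 was called higher (0.23, limma adjusted p = 0.0392). Slc25a39 was at −0.12 ± 0.049 without a call (−0.23 to −0.02), and was called lower with an intensity trend (adjusted p = 0.00466), among genes above the median level (0.0244) and without butyrate replicate 3 (0.0471). Slc25a15 was at −0.20 in that comparison, without a call (−0.40 to 0.01). It was called lower on the hybridization spike-in scale (−0.596, adjusted p = 2.05e-05), as 81.1% of all genes were. On the poly-A spike-in scale, added after seeing the data, it was also called lower (−0.547, 0.0291), as were 23.7% of all genes.

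**Figure D4:**
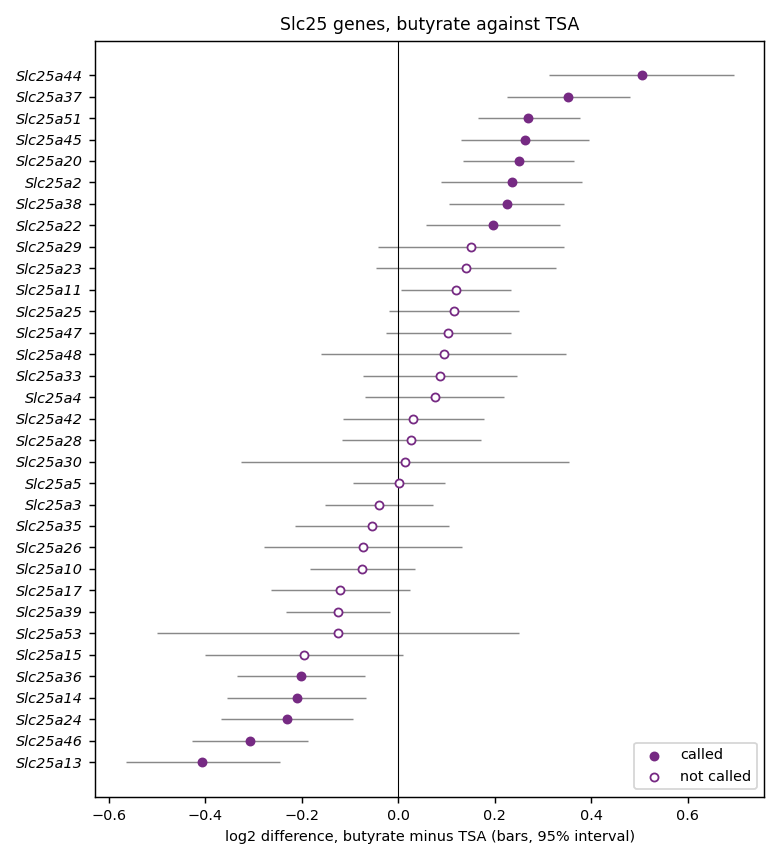
Log2 difference between butyrate and TSA samples for the 33 Slc25 genes, ordered by value (bars, 95% interval; filled points, called at adjusted p under 0.05). Slc25a44 is furthest to the right at 0.50 and Slc25a13 furthest to the left at −0.41; on the hybridization spike-in scale all points move left by 0.401.

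Enzymes that work with these carriers were read from a list that holds no Slc25 gene. Of 7 enzymes of the malate-aspartate and citrate shuttles, 3 rose and 3 fell with butyrate, and 3 rose and 3 fell with TSA. The all-gene shares were 33.6% higher and 24.8% lower with butyrate, and 26.3% and 21% with TSA. Malic enzyme Me1, which makes NADPH from malate in the cytosol, fell to 6.32 in butyrate and 6.43 in TSA samples, against 8.21 in untreated samples, differences of −1.89 and −1.78. The malate dehydrogenases moved up, the cytosolic Mdh1 by 1.18 ± 0.079 with butyrate and 1.37 ± 0.079 with TSA and the mitochondrial Mdh2 by 1.07 ± 0.054 and 0.83 ± 0.054. ATP citrate lyase Acly, which splits exported citrate for lipid synthesis, was lower, at −0.91 ± 0.049 and −0.64 ± 0.049 in that order.

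Genes of the import route that inserts carriers into the inner membrane mostly differed between the treatments. Of 11 measured, 3 rose and 4 fell with butyrate, and 8 rose and 1 fell with TSA. For all genes 33.6% rose and 24.8% fell with butyrate, and 26.3% and 21% with TSA. In the direct comparison 0 were higher and 8 lower in butyrate than in TSA samples, against 15.9% and 20% of all genes. Timm10, a small chaperone of the intermembrane space, was −0.85 ± 0.064 in that comparison, and the import channel Tomm40 was −0.57 ± 0.073. The carrier receptor Tomm70a was higher by 0.33 ± 0.067 with butyrate, less than the 0.415 of the spike-in shift, and by 0.65 ± 0.067 with TSA, and the receptor Tomm20 by 0.86 ± 0.046 and 0.82 ± 0.046.

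Heme and iron-sulfur genes, which use the glycine and iron that Slc25a38 and the mitoferrins carry, were mixed. Of 10 measured, 5 rose and 2 fell with butyrate, and 3 rose and 5 fell with TSA. All-gene shares were 33.6% higher and 24.8% lower with butyrate, and 26.3% and 21% with TSA. The iron-sulfur desulfurase Nfs1 rose by 0.69 ± 0.060 with butyrate and 0.75 ± 0.060 with TSA, and its scaffold partner Iscu was lower, at −0.59 ± 0.051 and −0.43 ± 0.051. Alas1, the first enzyme of heme synthesis outside red cells, was lower, at −0.29 ± 0.051 and −0.60 ± 0.051, while Alad, the next enzyme, rose by 0.52 ± 0.050 and 0.60 ± 0.050.

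Other transporters of the inner membrane also split. Of 9 measured, 3 rose and 4 fell with butyrate, and 3 rose and 3 fell with TSA. Shares over all genes were 33.6% higher and 24.8% lower with butyrate, and 26.3% and 21% with TSA. The serine transporter Sfxn1 rose by 0.94 ± 0.052 with butyrate and 0.93 ± 0.052 with TSA, the related Sfxn2 by 0.81 ± 0.057 and 0.48 ± 0.057, and the pyruvate carrier subunit Mpc1 by 0.58 ± 0.046 and 0.43 ± 0.046. Smdt1, a subunit of the calcium uniporter, was lower, at −0.29 ± 0.050 and −0.49 ± 0.050.

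**Figure D5:**
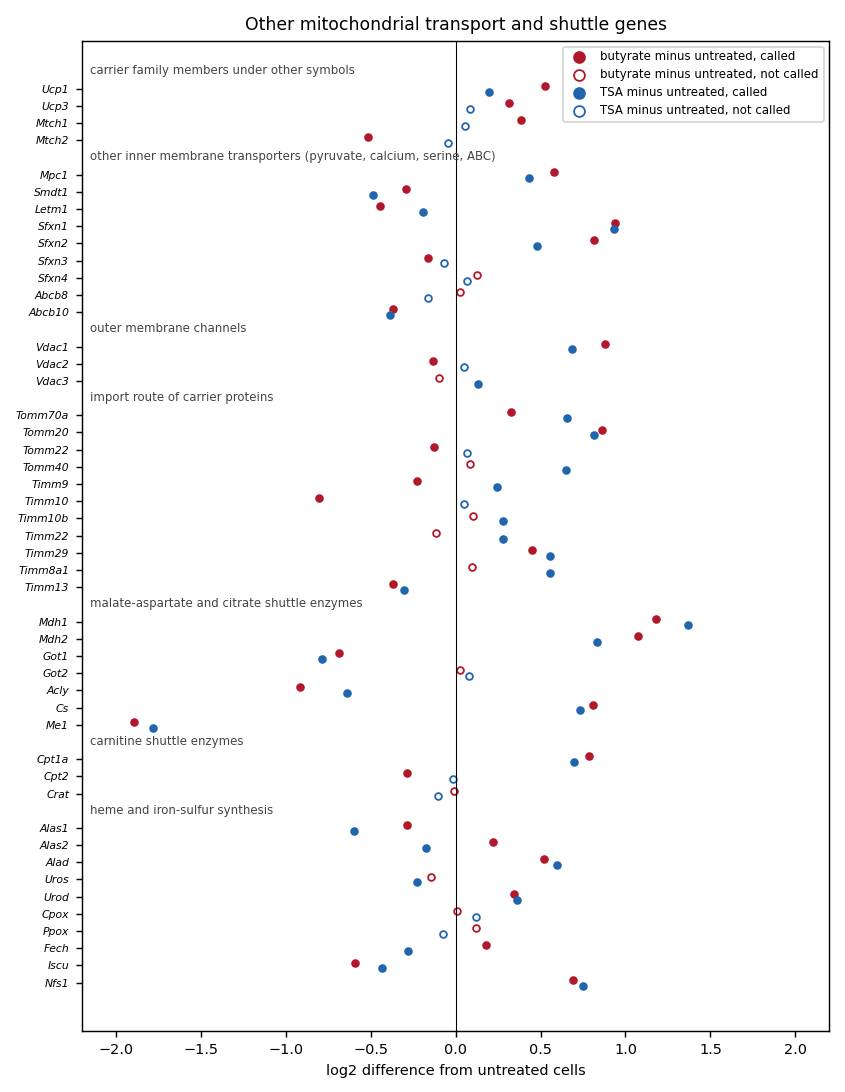
Log2 difference from untreated cells for genes that work beside the Slc25 carriers, by list, with butyrate in red and TSA in blue (filled points, called at adjusted p under 0.05). In the import list the butyrate points of 8 genes were called lower than TSA in the direct comparison, Me1 lies furthest to the left and Mdh1 furthest to the right; on the hybridization spike-in scale every butyrate point moves left by 0.415.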

How the data were processed

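RNA of 9 DC samples was hybridized to 9 one-colour Affymetrix arrays. The deposited values are log2 expression levels per probe set, which the authors made with RMA, as the submitters' processing notes and so the labels say; the sources used here give no program or version. RMA levels of dim genes sit near a floor, so their fold changes are understated, and the number of arrays limits the precision. The platform annotation gave 1 symbol to 20380 of 22690 probe sets, several to 691 and none to 1555 (64 were controls). All 33 members matched the RefSeq gene table (GRCm38.p6) by gene identifier.

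With limma 3.58.1 (lmFit, eBayes; R 4.3.3) each gene was given 1 mean per group over the 9 arrays (6 residual and 3.9 prior degrees of freedom), and p-values were adjusted by Benjamini-Hochberg over 12393 genes. Errors after log2 differences are limma standard errors, with 3 arrays per group, and every adjusted p is limma's. Adjusted p-values of further probe sets come from a fit over the 20380 single-symbol probe sets. Tested on simulated data for the TSA comparison, the fit recovered 99% of 100 genes shifted by 1 log2 unit and 69% of 100 shifted by 0.5, and made 6 false calls in 12393 genes. In butyrate against untreated it recovered 98% and 81% with 11 false calls, and in butyrate against TSA 99% and 83% with 13. Each simulation changed 200 genes and drew noise independently, whereas 58.4% of genes were called with butyrate and 47.3% with TSA. The simulated figures therefore do not give the error rate of the calls in these data. No arrays were identical, and arrays of a group correlated at 0.9971 to 0.9985. All members are named. Values on every array are given for those called with at least a 2-fold change and for the largest called butyrate-minus-TSA differences; the other members given by array were chosen after their values were seen. Of related lists, up to 4 called genes with the largest changes are named. Members and lists were chosen with earlier results of these data known. The alternatives covered spread, block, scaling, level filter, probe set choice, threshold and leaving out arrays; the poly-A spike-in scale was added after seeing the data.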

Additional observations from a re-analysis of the deposited data

How the results depend on the processing

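Scaling moved the results most. On the hybridization spike-in scale the butyrate counts against untreated were 6 higher and 17 lower, and against TSA 0 higher and 26 lower. Signs turned there against untreated for Slc25a2 −0.115, Slc25a3 −0.233, Slc25a4 −0.014, Slc25a5 −0.367, Slc25a10 −0.413, Slc25a11 −0.108, Slc25a14 −0.277, Slc25a17 −0.137, Slc25a20 −0.329, Slc25a22 −0.086, Slc25a24 −0.353, Slc25a25 −0.332, Slc25a29 −0.301, Slc25a33 −0.185, Slc25a36 −0.082, Slc25a42 −0.192, Slc25a47 −0.309 and Slc25a51 −0.126, and against TSA for Slc25a2 −0.165, Slc25a4 −0.325, Slc25a5 −0.399, Slc25a11 −0.281, Slc25a20 −0.151, Slc25a22 −0.205, Slc25a23 −0.26, Slc25a25 −0.285, Slc25a28 −0.373, Slc25a29 −0.25, Slc25a30 −0.386, Slc25a33 −0.314, Slc25a37 −0.048, Slc25a38 −0.176, Slc25a42 −0.37, Slc25a45 −0.137, Slc25a47 −0.297, Slc25a48 −0.306 and Slc25a51 −0.131. The poly-A spike-in scale, chosen after seeing the data, gave 4 higher with butyrate, 8 higher and 3 lower with TSA, and 0 higher in butyrate against TSA. The 6 members called lower with butyrate against untreated as deposited were still called lower there. The 5 called lower in butyrate than TSA also kept that call, and Slc25a15 gained it (−0.547, limma adjusted p = 0.0291). Over all genes that scale gave 4.38% higher and 27.3% lower with butyrate, and 9.95% and 9.77% with TSA. In butyrate against TSA it gave 0.137% of all genes higher and 23.7% lower. Signs turned there against untreated for Slc25a2 −0.046, Slc25a3 −0.164, Slc25a11 −0.038, Slc25a17 −0.067, Slc25a22 −0.017, Slc25a33 −0.116, Slc25a36 −0.012, Slc25a42 −0.122 and Slc25a51 −0.056, and against TSA for Slc25a2 −0.116, Slc25a20 −0.102, Slc25a22 −0.155, Slc25a38 −0.126, Slc25a45 −0.088 and Slc25a51 −0.081. Averaging all probe sets turned Slc25a51 to −0.378 with TSA and −0.173 with butyrate. Members lower in butyrate than TSA numbered 3 after further quantile normalization and 2 at an adjusted p under 0.01. Requiring at least a 2-fold change left 4 higher and 0 lower with butyrate, 2 higher and 0 lower with TSA, and 0 higher and 0 lower between them.

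Leaving out each array in turn gave 16 to 18 higher and 5 to 6 lower with butyrate, 14 to 15 higher and 5 to 7 lower with TSA, and 6 to 9 higher and 3 to 6 lower in butyrate against TSA. A group left with 2 arrays shared the spread estimated over all groups. The replicate block gave 17 higher and 6 lower with butyrate, 15 and 6 with TSA and 8 and 5 between them, and changed no member's call. Same-numbered arrays did not deviate together (mean correlation −0.005 over 9 pairs, 0.002 over 18 pairs of other numbers), and 5 of 18 were closest to their own number. The filter on level kept 22 members. Dim probe sets such as those of Slc25a2 and Slc25a23 lie near background, which limits their fold changes. The cause of these changes was not tested.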

Other observations

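Carrier family members under other symbols were measured too. Of 4 genes, 3 rose and 1 fell with butyrate, and 1 rose and 0 fell with TSA. Over all genes 33.6% rose and 24.8% fell with butyrate, and 26.3% and 21% with TSA. Mtch1, an outer membrane relative of the carriers, was higher by 0.39 ± 0.060 with butyrate (limma adjusted p = 0.000254) and at 0.06 ± 0.060 with TSA (0.483). Its partner Mtch2 was −0.51 ± 0.047 with butyrate (5.7e-06) and −0.04 ± 0.047 with TSA (0.526). The uncoupling protein Ucp1, dim at 5.63, 5.30 and 5.11 in butyrate, TSA and untreated samples, rose by 0.52 ± 0.064 with butyrate and 0.19 ± 0.064 with TSA.

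Of the outer membrane channels, Vdac1 rose by 0.88 ± 0.048 with butyrate and 0.69 ± 0.048 with TSA, while Vdac2 was −0.14 ± 0.048 with butyrate (0.0324) and 0.05 ± 0.048 with TSA (0.474). Of the carnitine shuttle, Cpt1a, the enzyme that commits fatty acids to oxidation, rose by 0.78 ± 0.076 and 0.70 ± 0.076. Cpt2, which acts inside the membrane crossed by Slc25a20, was −0.29 ± 0.050 with butyrate (0.000646) and −0.01 ± 0.050 with TSA (0.848). The butyrate values of Mtch1, Mtch2, Vdac1, Cpt1a and Cpt2 are each 0.415 lower on the hybridization spike-in scale.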
